A study of Homo sapiens and Mus musculus with 4 samples.

Results

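Binding of ATF4 was examined at 9 genes that act downstream of cellular stress, namely CHAC1, TRIB3, HERPUD1, NUPR1, STC2, VLDLR, GDF15, BBC3 and KLHL24. The genes were chosen by name, and a peak was assigned to a gene when it overlapped the gene span extended by 10 kb on each side. In KG1a cells, a human line of acute myeloid leukaemia cultured in 20% fetal bovine serum, 3 of 873 deposited ATF4 peaks met this rule, and each fell to a different one of 3 genes. The other cell source was bone marrow cells of C57BL/6 mice, for which the deposited list held 83088 peaks. Each source had 1 chromatin immunoprecipitation (ChIP) library that used an antibody against ATF4 and 1 input library without antibody, and 1 peak list was derived from each pair. No treatment or genetic change is given for any of the 4 libraries, and the labels do not say how many mice the marrow came from or which marrow cells it held. The lists give the position of each peak and no height, fold enrichment or p-value, so read depth is unknown and no value below has a replicate error. A peak list cannot be checked against markers of the labelled cell type.

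ATF4 is a basic leucine zipper transcription factor whose translation rises when the kinases of the integrated stress response phosphorylate eIF2 alpha. It binds DNA mostly as a heterodimer with C/EBP proteins, at a composite site that joins part of an ATF site to part of a C/EBP site and is known as the C/EBP-ATF response element or amino acid response element. Its best-known targets make and import amino acids and charge tRNAs, whereas the genes described here carry the later arms of the response. They encode an enzyme that degrades glutathione (CHAC1), a pseudokinase that restrains AKT signalling and ATF4 itself (TRIB3), a membrane protein of endoplasmic reticulum (ER) associated degradation (HERPUD1), a small nuclear stress protein (NUPR1), secreted factors (STC2, GDF15), a lipoprotein receptor (VLDLR), a BH3-only death protein also called PUMA (BBC3) and an adaptor of a cullin ubiquitin ligase (KLHL24).

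The peaks at CHAC1 and HERPUD1 covered the annotated start of the gene, and the DNA just before both starts holds the same composite site. The sequences are from RefSeq on GRCh38.p14, whose chromosome coordinates are those of GRCh38, the build of the KG1a list. They are the 250 bases before the start, read 5′ to 3′ on the strand of the gene, which is the plus strand for both. Capitals mark the composite site, TGATGNAAN, which in both genes lies on the opposite strand and therefore reads GTTGCATCA here. In HERPUD1 the second stretch in capitals matches the ER stress response element II, through which the unfolded protein response is known to act on this gene. The CHAC1 stretch is chr15:40953221-40953470 and the HERPUD1 stretch is chr16:56931892-56932141.
CHAC1: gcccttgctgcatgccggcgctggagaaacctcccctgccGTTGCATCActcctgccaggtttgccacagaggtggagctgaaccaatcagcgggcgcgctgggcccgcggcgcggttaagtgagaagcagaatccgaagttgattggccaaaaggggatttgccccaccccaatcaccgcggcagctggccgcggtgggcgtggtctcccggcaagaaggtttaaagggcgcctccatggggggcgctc
HERPUD1: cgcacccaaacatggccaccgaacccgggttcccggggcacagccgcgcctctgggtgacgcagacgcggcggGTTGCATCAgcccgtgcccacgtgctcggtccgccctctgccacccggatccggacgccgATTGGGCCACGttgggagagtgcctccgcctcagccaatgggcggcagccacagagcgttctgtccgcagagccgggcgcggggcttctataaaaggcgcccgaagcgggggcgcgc

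Turned to the strand on which the site begins with TGATG, the sites of both genes can be set beside 3 others that also lay under a KG1a peak. AARS1 encodes a tRNA synthetase, S100PBP shares its peak with the neighbouring synthetase gene YARS1, and LOC124904731 is a long non-coding RNA gene that lies upstream of BBC3. Each line gives the 9 bases of the site in capitals with 10 bases on each side. The positions are chr15:40953251-40953279 (minus strand) for CHAC1, chr16:56931955-56931983 (minus) for HERPUD1, chr16:70289676-70289704 (plus) for AARS1, chr1:32817337-32817365 (minus) for S100PBP and chr19:47244298-47244326 (minus) for LOC124904731.
CHAC1: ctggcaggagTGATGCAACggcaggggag
HERPUD1: gggcacgggcTGATGCAACccgccgcgtc
AARS1: ctaacttggcTGATGCAACtgcgagaaaa
S100PBP: cgagcccagcTGATGCAACctggctggac
LOC124904731: aggaggaagcTGATGAAATcctggccaac
The first 4 share the 9-base site TGATGCAAC, and their flanks differ. The site near BBC3 reads TGATGAAAT. The sites shown were chosen from 9 that lay inside KG1a peaks near gene starts, so the shared letters follow in part from the choice. Not shown are LOC102724467, also TGATGCAAC, and TARS1, GARS1 and SLC3A2, which read TGATGCAAT, TGATGAAAT and TGATGTAAG.

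The first question was where ATF4 sat at these genes in KG1a cells. CHAC1, HERPUD1 and KLHL24 had 1 listed peak each, and the other 6 genes had none within 10 kb. Of all 20037 protein-coding genes, 632 had a peak under the same rule, or 3.15%. The 9 genes were chosen with earlier results of these data known, so the count of 3 of 9 describes these genes and was not tested. A longer gene offers more room for a peak, and the share of genes with one rose with the length of the span. It was 1.03% for spans up to 5 kb, the class of CHAC1, and 1.56% for spans over 5 and up to 20 kb, the class of HERPUD1. For spans over 20 and up to 100 kb, the class of KLHL24, it was 3.45%, and for longer spans 7.27%.

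CHAC1, the enzyme that cleaves glutathione, had the widest of the 3 peaks. Its peak spanned chr15:40952753-40953505, from 718 bp before the annotated start to 34 bp after it, and was 753 bp wide. It ranked 6 in width among the 873 KG1a peaks, whose widths had a median of 341 bp and quartiles of 323 and 371 bp. The gene itself spans only 3.04 kb (chr15:40953471-40956512), so the peak sat at its start and reached no other part of it. The next KG1a peak lay 1.67 Mb away. No other protein-coding gene lay within 10 kb of the CHAC1 peak. A pseudogene, ISCA1P4, lay 3.80 kb from it and a long non-coding RNA gene, LOC105370789, 8.98 kb. The composite site, chr15:40953261-40953269, was centred 206 bases before the start and 136 bp from the middle of the peak. The sequence at hand covers 285 of the 753 bases of the peak, or 37.8%, so further sites in the rest of the peak were not searched.

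HERPUD1, whose product sits in the ER membrane and helps to pass misfolded proteins to the proteasome, had a narrower peak with the site at its middle. The peak spanned chr16:56931777-56932161, from 365 bp before the start to 19 bp after it. At 385 bp it ranked 157 in width among the 873. The composite site, chr16:56931965-56931973, was centred 173 bases before the start, and its distance from the middle of the peak was 0 bp. The ER stress response element II lay on the other side of the middle, toward the gene, at chr16:56932025-56932035 and 112 bases before the start. Between both elements stood a CACGTG, the letters of an E-box, centred 157 bases before the start. HERPUD1 was the only gene of any type within 10 kb of this peak, and the next KG1a peak lay 1.18 Mb away.

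KLHL24, which encodes an adaptor that brings proteins to a cullin ubiquitin ligase, had its peak inside the gene and not at the start. The peak spanned chr3:183638156-183638491 and its middle lay 2.70 kb into a gene of 48.9 kb (chr3:183635623-183684519). It was 336 bp wide, below the median of the list, and ranked 492. The gene table gives no exons, so the peak is called neither exonic nor intronic here. It lay outside the 300 bases of promoter sequence at hand, in which no composite site was found, and the sequence under the peak itself was not analysed. The peak was 1.55 kb from LOC107986162, a long non-coding RNA gene that overlaps the start of KLHL24, and 5.17 kb from LOC105374248, another such gene. The next KG1a peak was 247 kb from the gene.

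BBC3, which encodes a protein that triggers apoptosis at the mitochondrion, fell just outside the rule. Its nearest peak, chr19:47244143-47244595, lay 11.3 kb from the gene span (chr19:47220824-47232860). BBC3 is transcribed from the minus strand, so this peak was on the upstream side. It was 453 bp wide, which ranked 74. The peak covered the annotated start of LOC124904731 (chr19:47238675-47244195), a long non-coding RNA gene that is read toward BBC3 from the same strand. It ran from 400 bp before that start to 52 bp after it, with the composite site at chr19:47244308-47244316, which is 117 bases before the start and 57 bp from the middle of the peak. The promoter window of BBC3 itself held no composite site and no peak, but a CACGTG 229 bases before the start. The window runs from 47232618 to 47232917 and lies mostly inside the span, which ends at 47232860. The DNA upstream of 47232917 was therefore not searched for sites, apart from the window of LOC124904731. Which gene this peak acts on cannot be read from a peak list.

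**Figure D1:**
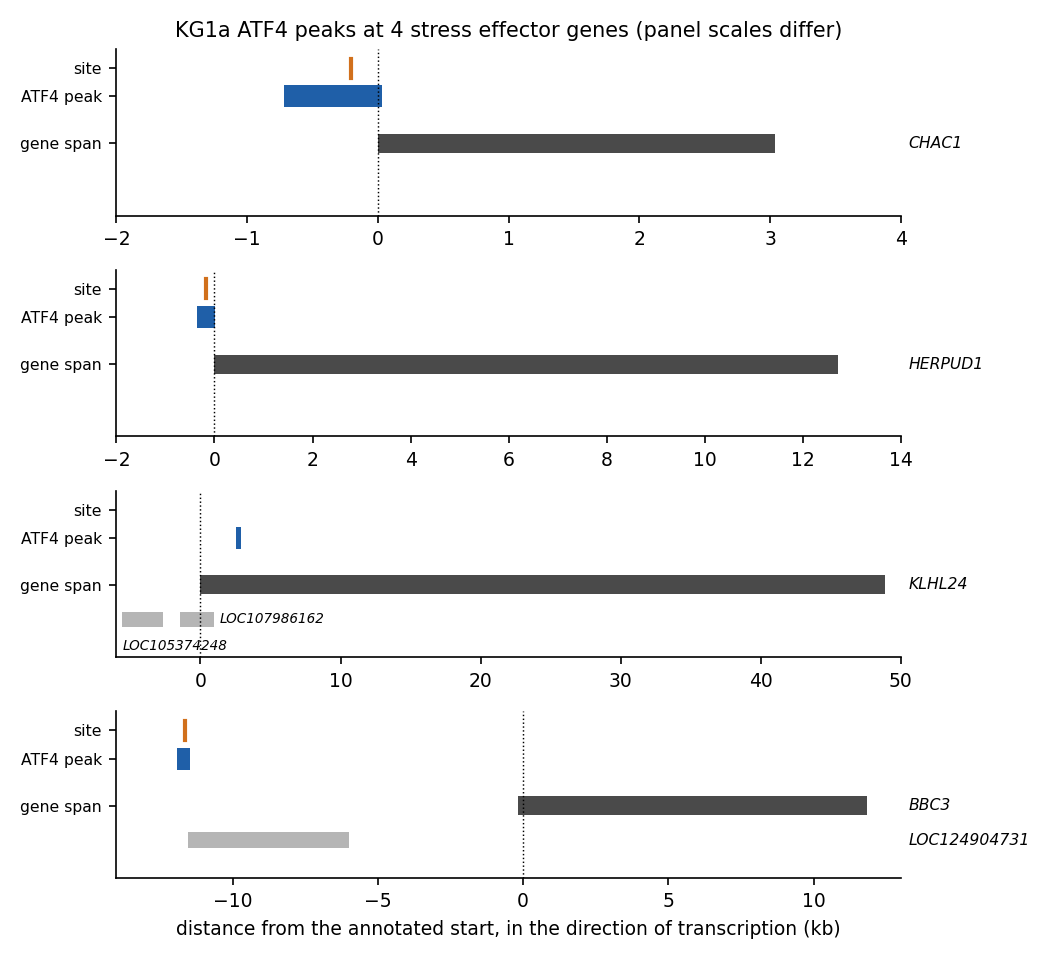
Position of the KG1a ATF4 peak (blue), the composite site (orange), the gene span (dark grey) and neighbouring genes (light grey) relative to the annotated start at CHAC1, HERPUD1, KLHL24 and BBC3, in kb along the direction of transcription; the panels differ in scale. The peaks at CHAC1 and HERPUD1 cover the start, the KLHL24 peak lies 2.70 kb inside the gene, and the peak nearest to BBC3 covers the start of LOC124904731, 11.3 kb from BBC3. Sites were searched only in the promoter windows, so none could be drawn under the KLHL24 peak.

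The pseudokinase gene TRIB3, on chromosome 20 from 380760 to 397559, had its nearest peak 58.1 kb away. That peak, chr20:322327-322641, lay inside NRSN2-AS1, a long non-coding RNA gene, and 2.91 kb from SOX12, a transcription factor gene. It was 315 bp wide, close to the narrowest in the list (310 bp). TRIB3 had 3 promoter windows in the sequence table, which overlap each other, and none held the composite site. The windows run from 381045 to 381392, inside the span, so the DNA before the outermost end at 380760 was not searched. The absence of these letters from the windows says nothing of that DNA or of the rest of the gene.

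Among the secreted factors, GDF15, a cytokine released by stressed cells that reduces food intake, had its nearest peak 290 kb away, on the high-coordinate side. STC2, a secreted glycoprotein, had the most distant peak of the 9 genes, at 3.21 Mb. The receptor gene VLDLR, whose product takes up triglyceride-rich lipoproteins, lay 1.63 Mb from its nearest peak. NUPR1, which encodes a small nuclear protein induced by stress, lay 353 kb from its nearest peak. The median distance over the 9 genes was 0.0581 Mb, which is the TRIB3 value, against 0.961 Mb over the protein-coding genes on chromosomes that held a peak. STC2 and VLDLR were thus farther from a peak than the median gene, and the other 7 were nearer.

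**Figure D2:**
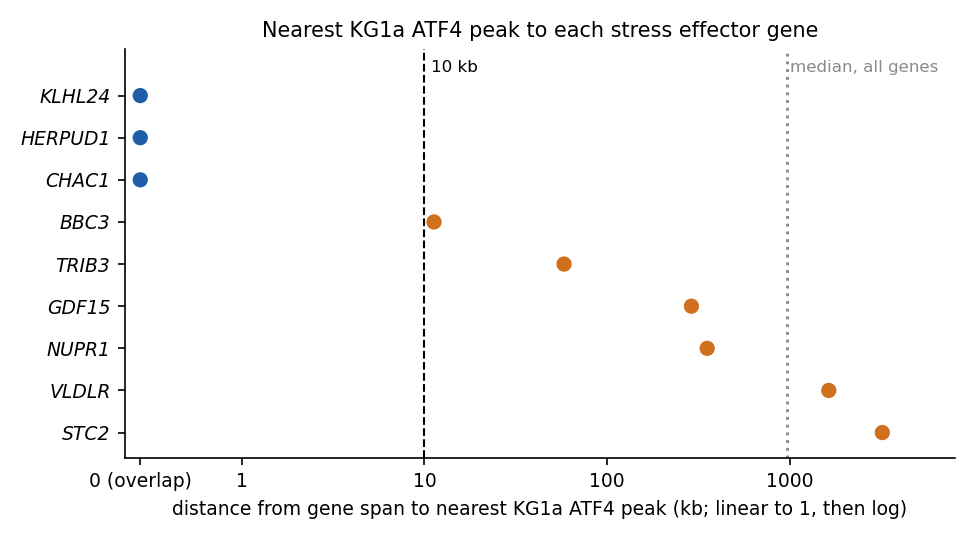
Distance in kb from the span of each of the 9 genes to the nearest KG1a ATF4 peak, on an axis that is linear up to 1 kb and logarithmic beyond. Blue points are genes within 10 kb (dashed line) and orange points the others; the dotted line is the median over protein-coding genes, 0.961 Mb. CHAC1, HERPUD1 and KLHL24 overlap a peak, BBC3 lies just past the dashed line, and STC2 is farthest.

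The composite site set CHAC1 and HERPUD1 apart from the other members with a promoter sequence. Promoter windows run from 250 bases before to 50 after a start, and 8 of the 9 genes had at least 1 in the table, all but NUPR1. Both strands were searched. CHAC1 and HERPUD1 held TGATGNAAN, and these were also the only members whose window was overlapped by a KG1a peak. The 6 others, TRIB3, STC2, VLDLR, GDF15, BBC3 and KLHL24, had neither. Of all 35116 windows in the table, 71 were overlapped by a KG1a peak, or 0.202%, and 1268 held the site, or 3.61%. Of the windows with the site 0.789% were overlapped by a peak, and of the 33848 windows without it 0.180%. With both open bases fixed as in CHAC1 and HERPUD1, TGATGCAAC stood in 76 windows (0.216%), of which 6.58% were overlapped by a peak. These 5 windows belonged to CHAC1, HERPUD1, AARS1, S100PBP and LOC102724467. The fixed bases were read from CHAC1 and HERPUD1, which are themselves among these 5 windows, so the share of 6.58% is in part built in. The variant ending in T, TGATGCAAT, stood in 83 windows (0.236%) and in no member. These shares describe the tables and were not tested, since windows of neighbouring starts overlap and some share a peak.

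Other elements were searched in the same windows. The ER stress response element II stood in 19 of the 35116 windows (0.0541%), and HERPUD1 was the only member with it. Both this element and the composite site were found in 3 windows, those of HERPUD1, ZNF143 and ZNF143-AS1. The longer, first ER stress response element was in 27 windows (0.0769%), and the cyclic AMP response element TGACGTCA, bound by other ATF and CREB proteins, was in 649 (1.85%). Neither was in a member with these exact letters. Near matches were not searched for, but the HERPUD1 sequence above holds a near match to the first element that differs in its last base. CACGTG was in 2548 windows (7.26%), including those of BBC3 and HERPUD1. The core TGATG alone, which is part of the composite site, was in 32.9% of windows. Among the 8 members with a window it was in 2, CHAC1 and HERPUD1, a share no higher than that of all windows. In both it was part of the composite site already counted and not a further match.

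CHAC1 and HERPUD1 were among the 10 promoter peaks for which the composite site was found. In all, 56 KG1a peaks overlapped a promoter window, and 10 of them had the composite site in such a window, or 17.9% (Wilson 95% interval 10.00 to 29.8%, which covers counting error only). The parts of the peaks outside the windows were not searched, so more of the 56 may hold the site. In 9 of the 10 peaks with a site found, the site lay within the peak, at a median of 57 bp from its middle and at most 217 bp. The value was 0 bp for HERPUD1, the smallest, and 136 bp for CHAC1, the second largest. The peak covered 285 of the 300 bases of the window at CHAC1, 270 at HERPUD1 and 300 at LOC124904731. A site found in such a window falls inside the peak largely by construction, and whether peaks centre on the site was not tested. The 10 peaks had a median width of 450 bp, against 367.5 bp for all 56. CHAC1 was 1 of 4 promoter peaks at least 753 bp wide, and HERPUD1 was among the 23 of at least 385 bp. The order of the deposited list is not explained in the sources used here. In that order the 10 peaks had a median place of 15.5 of 873, against 249.5 for the 56. CHAC1 stood in place 7, the peak near BBC3 in place 14 and HERPUD1 in place 27, whereas KLHL24 stood in place 368 and the peak nearest to TRIB3 in place 356.

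**Figure D3:**
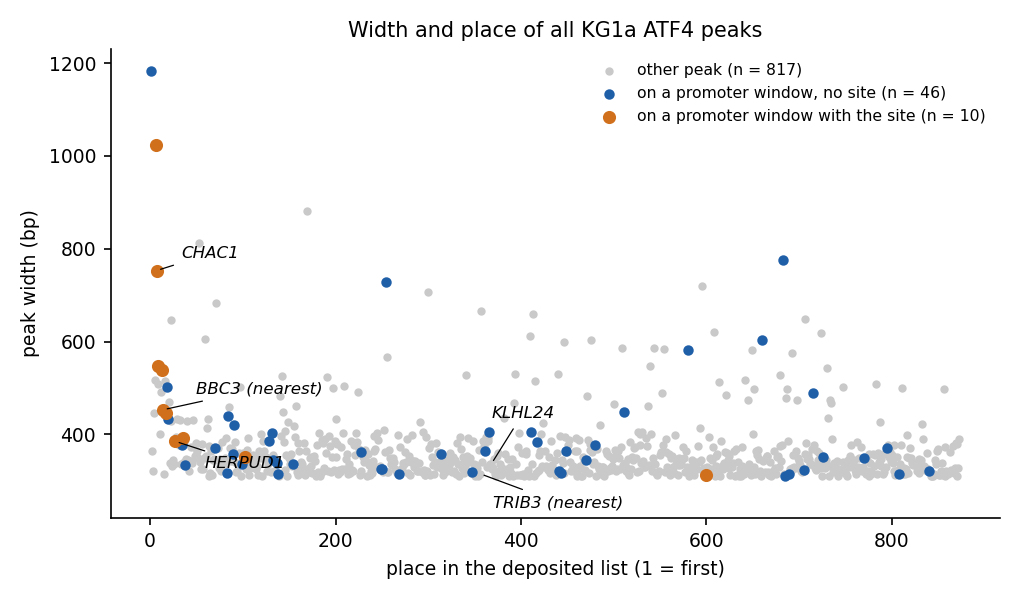
Width in bp of each of the 873 KG1a ATF4 peaks against its place in the deposited list. Grey points lie on no promoter window, blue points on a window without the composite site and orange points on a window with it; named points are peaks at or nearest to a member. The peaks at CHAC1 and HERPUD1 stand among the orange points in places 7 and 27. So does the peak nearest to BBC3, in place 14, which lies on the window of LOC124904731 and not of BBC3. The KLHL24 peak and the peak nearest to TRIB3 are among the narrow grey points at 336 and 315 bp.

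The next question was whether related stress genes had peaks. Over 3 lists of such genes, 3 of 47 had a KG1a peak within 10 kb of the span, where the share of all protein-coding genes was 3.15%. With flanks of 50 kb the count was 9 of 47, where the share of all genes was 6.25%. The lists, like the members, were chosen with earlier results known. In the list of genes induced through ATF4 and its partner CHOP, 2 of 20 had a peak, ATF3 and SLC3A2. ATF3 encodes a transcription factor induced by ATF4, and its peak (chr1:212608462-212608889, 428 bp) lay inside the gene span and on none of its promoter windows at hand. The middle of the peak was 43.3 kb from the low-coordinate end of the span. Whether it lies at a start of ATF3 that has no window here is not known. SLC3A2 encodes the heavy chain shared by several amino acid exchangers. Its peak (chr11:62881510-62881900, 391 bp) covered an internal start and a composite site, TGATGTAAG, 34 bp from the middle of the peak. In the list of ER folding and degradation, to which HERPUD1 is related by function, 1 of 20 had a peak, CRELD2, a gene of an ER-resident protein. That peak lay 8.61 kb outside the gene and was 352 bp wide. None of the 7 genes of other BH3-only proteins, the family of BBC3, had a peak, nor did any of 10 control genes of other tissues. At the share of 3.15% over all genes, lists of 7 and 10 genes cannot show a lack of peaks.

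None of the 11 closest relatives of the members had a peak within 10 kb, where 3.15% of all genes had one, or within 50 kb (6.25%). At these shares a list of 11 genes cannot show a lack of peaks. CHAC2, the relative of CHAC1, lay 129 kb from its nearest peak, and HERPUD2 1.22 Mb from its own. TRIB1 and TRIB2, the other tribbles genes, lay 1.06 and 5.50 Mb away. KLHL6, which lies next to KLHL24 on chromosome 3, had the KLHL24 peak as its nearest, at 82.5 kb. Of the 7 relatives with a promoter window, 0 held the composite site. In the ATF4 and CHOP list 5 of 16 genes with a window held it, ATF3, CEBPG, FGF21, JDP2 and SLC3A2, and of these only SLC3A2 had a peak on the window. In the BH3-only list 1 of 6 genes with a window held it, HRK. In the list of ER folding and degradation 0 of 18 held it, and among the control genes 0 of 6. Over all genes with a window the share with the site was 4.45%.

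The count of members with a peak hardly moved with the size of the flank. CHAC1, HERPUD1 and KLHL24 each had a peak that touched the gene span itself, where the share of all genes was 2.26%. The same 3 genes were counted with flanks of 1 kb (2.47% of all genes) and 5 kb (2.77%). With 50 kb BBC3 joined them, for 4 of 9, where 6.25% of all genes had a peak.

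**Figure D4:**
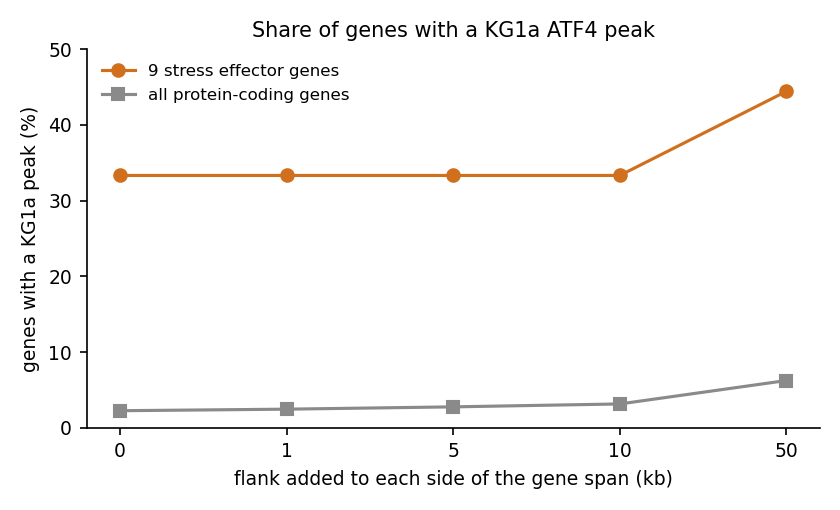
Percentage of genes with a KG1a ATF4 peak against the flank added to each side of the gene span (kb, settings evenly spaced and not to scale), for the 9 stress effector genes (circles) and for 20037 protein-coding genes (squares). The 9 genes stay at 3 of 9 up to 10 kb and reach 4 of 9 at 50 kb, while all genes go from 2.26 to 6.25%. The 9 genes were chosen with earlier results known, so the gap is a description.

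The second cell source, mouse bone marrow, puts the same question to primary marrow. Positions on GRCm38 were at hand for Chac1 and Trib3 only, as single approximate points on chromosome 2 near 119.35 and 152.34 Mb. They are rounded to 10 kb and give no start, end or strand, so a peak cannot be placed at a promoter or inside a gene. The orthologues of the other 7 genes were not analysed here. The mouse list is dense. Of 239778 positions spaced every 10 kb along the 19 autosomes, 36.5% had a peak within 10 kb and 84.2% within 50 kb, so a peak near a given gene is common in this list.

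At Chac1 the nearest peak was one of the widest in the mouse list. It spanned chr2:119355713-119362554 on GRCm38, a width of 6842 bp, and ranked 439 of 83088. Only 0.528% of the mouse peaks were at least as wide, and the median was 544 bp. It began 5.71 kb from the approximate position on the high-coordinate side, and this distance runs from 0.713 to 10.7 kb if the position is off by 5 kb. Within 50 kb of Chac1 there were 9 peaks, which covered 13.2 kb. The median position had 3 peaks within 50 kb (interquartile range 1 to 5), and 6.95% of positions had at least 9. The 8 other peaks around Chac1 were from 395 to 2008 bp wide.

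At Trib3 no mouse peak lay within 10 kb of the approximate position. The nearest, chr2:152327211-152328132, was 922 bp wide and ended 11.9 kb away on the low-coordinate side. Since the extent of the gene on either side of the point is not known here, and the distance runs from 6.87 to 16.9 kb if the point is off by 5 kb, whether this peak meets the rule of 10 kb around the span is undecided. There were 2 peaks within 50 kb, which covered 1.25 kb, and the other was 332 bp wide and 27.8 kb away. This number is ordinary for the list, since 68.3% of positions had at least 2. In deposited order the Trib3 peak stood in place 204 and the wide Chac1 peak in place 2255 of 83088.

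**Figure D5:**
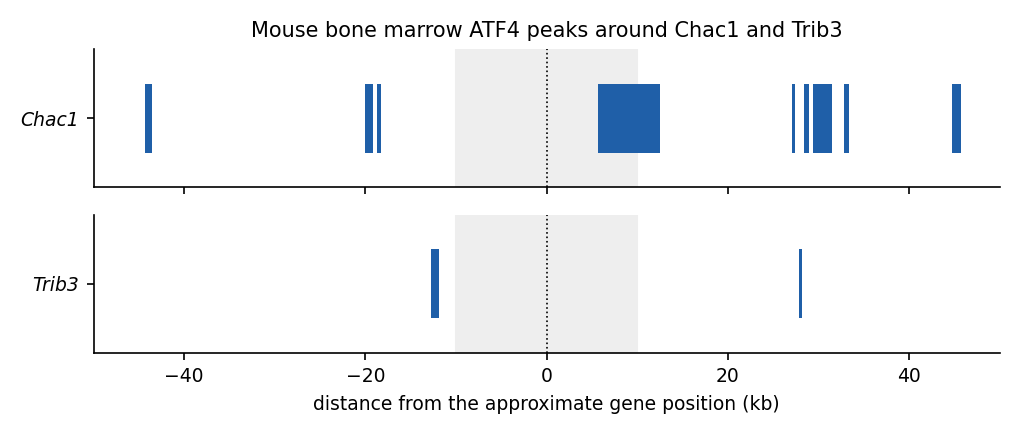
Mouse bone marrow ATF4 peaks (blue bars, drawn to scale) within 50 kb of the approximate positions of Chac1 and Trib3 (dotted line), with distance in kb; grey marks 10 kb on each side. Chac1 has 9 peaks including one of 6842 bp that starts 5.71 kb from the position, and Trib3 has 2, both outside the grey band.

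Side by side, CHAC1 had a peak over its start in KG1a, 753 bp wide (rank 6 of 873). In mouse marrow a peak of 6842 bp (rank 439 of 83088) began 5.71 kb from the approximate position of Chac1. Whether that mouse peak touches the gene is not known, and 36.5% of mouse positions had a peak within 10 kb. TRIB3 had no peak within 10 kb in KG1a and none within 10 kb of its approximate position in the mouse. The sources differ in species, in the number of peaks and in unknown depth, with 1 ChIP library each, so no test between them was made and a difference between cell sources cannot be told apart from one between libraries.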

How the data were processed

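ATF4 ChIP-seq was analysed from 2 peak lists, KG1a and mouse bone marrow, each made from 1 ChIP and 1 input library. The authors used Bowtie2, MACS2, deepTools and CASAVA 1.4 with builds GRCh38 and GRCm38, per the submitters' processing notes. Parameters and the cutoff for peaks are not stated there. The deposited lists hold 3 columns, chromosome, start and end in bases, with no score. Starts were read as counted from 0 and are printed counted from 1.

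Genes came from RefSeq (GRCh38.p14), in which all 9 members and all 68 genes of 5 further lists were matched by symbol. Promoter windows came from the matching RefSeq sequence table. A peak counted with an overlap of at least 1 base. Mouse positions were the 2 approximate points that define the members. Named are all members and every list gene with a KG1a peak within 10 kb. Members and lists were chosen with earlier results of these data known. Counts are set beside the share over all genes, windows or positions, and no significance test was run. Analysis used Python 3.11.15 with pandas 2.3.3, and overlap and site counting were tested on simulated data. Alternatives were other flanks, peak centres, the widest 25% of peaks and other forms of the site.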

Additional observations from a re-analysis of the deposited data

How the results depend on the processing

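Neither list has a score, replicate or read count, so width stood in for a stricter threshold and depth limits cannot be stated. No paired analysis was possible because each group has 1 library and no result comes from a test. The KG1a count of 3 members was between 2 and 4 under the 7 alternatives run. It was 2 among the widest 25% of peaks and 2 in the first 25% of the deposited order, where KLHL24 dropped out, the latter chosen after seeing the data. The 3 stress lists went from 3 to 9 genes with flanks of 50 kb (6.25% of all genes), and were 2 or 3 otherwise. The mouse count of 1 (Chac1) became 0 within 1 kb and 0 within 5 kb of the approximate position, and 2 within 50 kb. The count of 2 members with the composite site became 0 on the forward strand alone, 0 for the exact TGATGCAAT, and 1 for the ER stress response element II (also chosen after seeing the data). By construction each of these searches 1 strand or other letters. The mouse gene span alone and the mouse stress lists were not run, since mouse gene positions were not used here.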

Other observations

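The promoter peaks with the composite site that lay at neither a member nor a listed gene included the second widest of the KG1a list. It covered the start of LOC102724467, a gene on chromosome 16, from 87778463 to 87779485, was 1023 bp wide and stood in place 6. The window of this gene held 2 composite sites, and the one nearer to the middle of the peak was TGATGCAAC, as in CHAC1 and HERPUD1. At LOC124909370, on chromosome 3, the site TGATGCAAA lay in the window but outside the peak, 168 bp from its middle, and this peak was narrow (313 bp) and late in the list (place 600). GARS1, a tRNA synthetase gene, had TGATGAAAT 76 bp from the middle of its peak, the same 9 bases as the site near BBC3.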
